A study of Mus musculus with 3072 samples.

Results

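Genes that write, maintain, read or remove DNA methylation were followed through 3 sorted populations of mouse bone marrow. With them went the clonal hematopoiesis gene Asxl1 and the histone acetyltransferase gene Kat6a. The 9 genes, Dnmt1, Uhrf1, Dnmt3a, Dnmt3b, Tet1, Tet2, Tet3, Asxl1 and Kat6a, were taken by symbol from a matrix of 55401 gene rows (55291 symbols once rows of the same symbol were added), and each was found. All 9 passed the filter on low counts in every comparison. The lowest number of counts for any of them in any mouse and population was 609.

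Methyl groups on the cytosines of CpG dinucleotides are copied to the new DNA strand by Dnmt1, which Uhrf1 guides to freshly replicated DNA, and are laid down on unmethylated DNA by Dnmt3a and Dnmt3b. The Tet enzymes oxidise 5-methylcytosine, the first step of its removal. Mutations of DNMT3A, TET2 and ASXL1 are the commonest drivers of clonal expansion of human blood stem cells. Kat6a, a histone acetyltransferase also known as Moz, is needed for stem cell maintenance in mice.

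Single cells were sorted from bone marrow of 8 wild-type C57BL/6 mice that had received barcoded stem cells, and their transcripts were sequenced with Smart-seq2, a method that covers whole transcripts and has no molecular identifiers. Each cell belongs to a population labelled HSC, MkP or CFU, abbreviations that the labels do not expand. The 4 control mice were analysed 32 weeks after transplant and the 4 platelet-depleted mice after 28 weeks, and all are recipients of a transplant. Since each treatment had its own week and experiment code, an effect of treatment cannot be told apart from either.

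After the well filter 2668 cells remained, 697 HSC, 647 CFU and 1324 MkP. Adding up the cells of a mouse within a population produced 24 sums with between 68792249 and 327869432 counts, the lowest from the HSC of control mouse 1. Levels are given in CPM, a gene's share of the counts of a sum after scaling by the trimmed mean of M-values (TMM), and a gene was called in a comparison at a Benjamini-Hochberg adjusted p under 0.05 over all genes tested. The main marker lists followed the labels. The HSC list was lower in MkP for 7 of 11 genes and in CFU for 11 of 11, the megakaryocyte list was higher in MkP than in HSC for 11 of 13, and the erythroid list was higher in CFU than in HSC for 13 of 13, so the cells labelled CFU carried erythroid transcripts. Of 7 tested myeloid markers, 5 were higher in CFU than in HSC as well. Their summed level in CFU varied widely between mice, from 2.63 to 1393.5 CPM in control and from 2.43 to 1224.8 CPM in depleted mice. MkP exceeded HSC for 5 of 5 tested mast cell and basophil markers (median 4.89) and for 6 of 13 erythroid markers. Summed neutrophil marker levels reached 3966 CPM in 1 control CFU sum and were otherwise at most 459 CPM. Of the genes of cell division, all 22 on the S phase list and 19 of 20 on the G2/M list were higher in MkP than in HSC, and all 42 were higher in CFU than in HSC, by a median of 2.11 (S phase) and 3.06 (G2/M) on the log2 scale.

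Promoters are shown for 4 of the 5 members whose values did not overlap between CFU and HSC, those of the maintenance pair, which were higher in CFU and MkP than in HSC, and of the de novo pair, which were lower in CFU. They come from RefSeq (build GRCm38.p6), which held 13 start sites for 8 of the 9 members. Each line gives the 250 bases before a start, 5′ to 3′ on the gene's strand, and capitals mark any of 4 words on either strand that resemble the site recognised by E2F, the transcription factor family of S phase genes. The first word searched was TTCCCGC. The others were TTCGCGC in one form, TTGCCGC in another form and finally TTGGCGC in the last form. Windows that overlap an annotated exon of the same gene, 6 of the 13, are not shown.
Uhrf1, chr17:56304063-56304312, + strand: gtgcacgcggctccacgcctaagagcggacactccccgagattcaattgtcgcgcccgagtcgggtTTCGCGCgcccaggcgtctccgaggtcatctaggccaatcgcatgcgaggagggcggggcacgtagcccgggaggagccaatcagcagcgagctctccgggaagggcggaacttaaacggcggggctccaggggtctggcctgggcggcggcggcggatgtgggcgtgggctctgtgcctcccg
Dnmt1, chr9:20952980-20953229, - strand: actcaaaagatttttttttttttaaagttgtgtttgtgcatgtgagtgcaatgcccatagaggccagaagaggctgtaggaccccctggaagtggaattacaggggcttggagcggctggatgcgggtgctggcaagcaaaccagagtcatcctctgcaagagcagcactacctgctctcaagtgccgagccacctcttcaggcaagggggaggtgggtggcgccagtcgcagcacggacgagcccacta
Dnmt3a, chr12:3806730-3806979, + strand: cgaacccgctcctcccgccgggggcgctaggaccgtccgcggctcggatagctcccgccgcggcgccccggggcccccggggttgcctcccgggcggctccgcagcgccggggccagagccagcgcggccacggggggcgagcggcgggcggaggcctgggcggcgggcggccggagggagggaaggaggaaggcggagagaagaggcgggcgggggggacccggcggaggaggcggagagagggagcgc
Dnmt3b, chr2:153649199-153649448, + strand: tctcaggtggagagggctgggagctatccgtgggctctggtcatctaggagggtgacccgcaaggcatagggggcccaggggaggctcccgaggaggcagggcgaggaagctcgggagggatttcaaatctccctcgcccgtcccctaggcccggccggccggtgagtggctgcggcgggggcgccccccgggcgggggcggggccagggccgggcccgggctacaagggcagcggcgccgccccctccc

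An E2F-type word stood in 4 of the 13 windows, against 7.89% of all 32851 promoter windows of the same length. These were both Uhrf1 windows, 1 of the 3 Dnmt1 windows, which overlaps an annotated Dnmt1 exon and holds 2 words, and the Asxl1 window. The printed Uhrf1 window has its word TTCGCGC at position -184 from the start site, and the printed Dnmt1, Dnmt3a and Dnmt3b windows have none. The word CCAAT stood in 5 of the 13 windows and in 33.85% of all windows, and the GATA-type word AGATAA in 0 of 13 and 9.99%, both strands counted. Each of the 4 E2F-type words holds a CpG, and the 7.89% was not matched for CpG content. Windows of the same gene are not independent, and 2 of the Dnmt3a windows overlap. The windows also differ in CpG dinucleotides, the substrate of the enzymes themselves. The printed Dnmt3a window holds 38, Uhrf1 30, Dnmt3b 21 and Dnmt1 7, against a median of 6 over all windows, and the Tet2 window at chr3:133544391-133544640 holds 51. Windows of the same gene differ as well. The Dnmt1 window with the 2 E2F-type words holds 26 and the third Dnmt1 window 2, the other Uhrf1 window 10, and the other Dnmt3a windows 40 and 15.

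**Figure D1:**
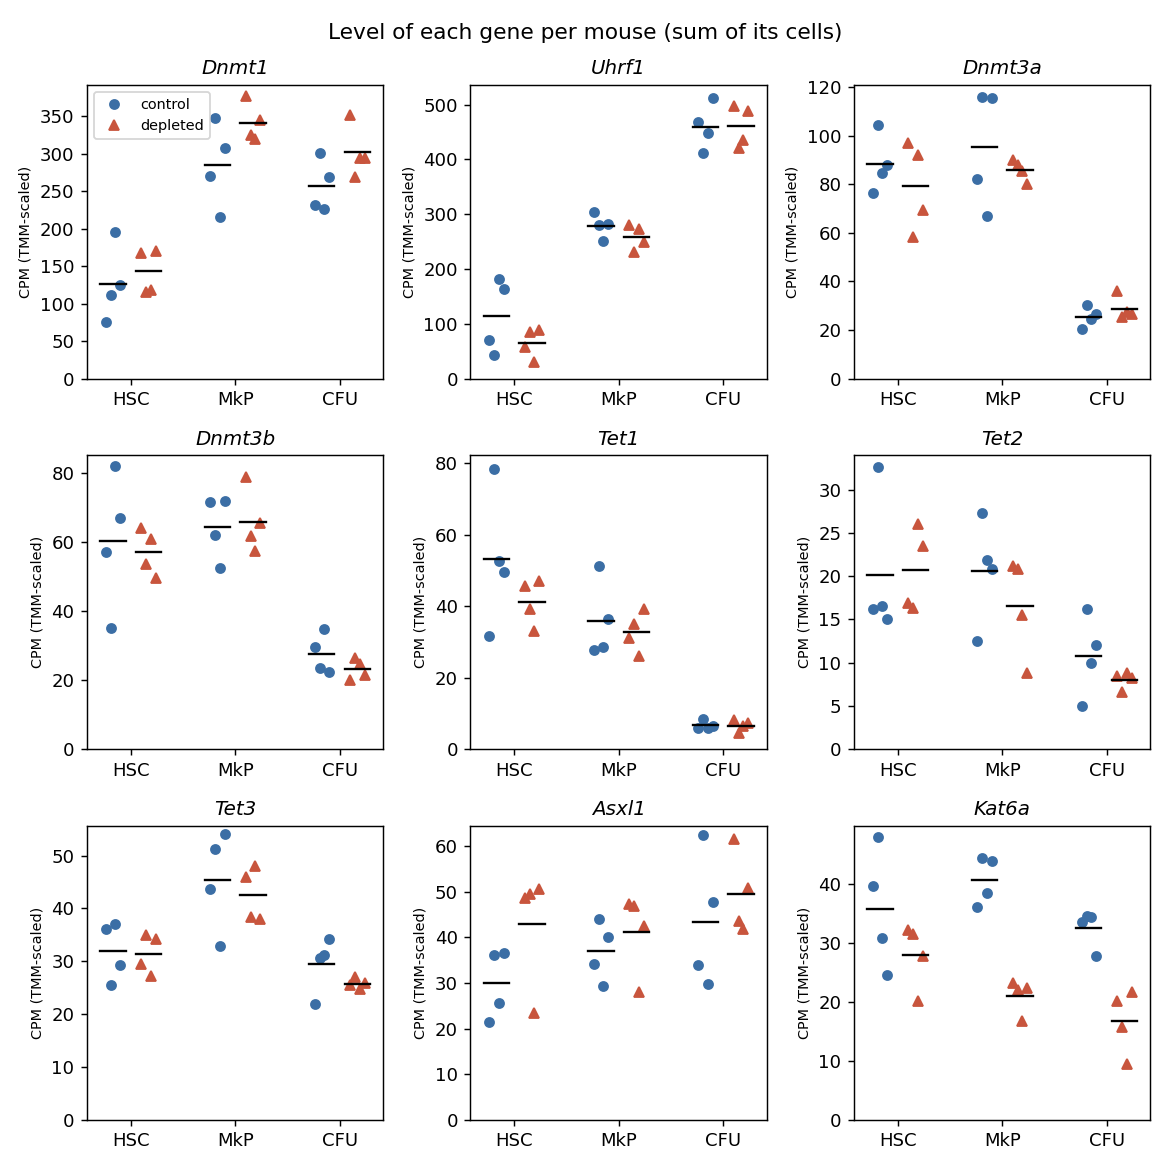
Level of each gene in CPM after TMM scaling (y axis, linear, starting at 0) in HSC, MkP and CFU. Each point is 1 mouse, blue circles are the 4 control and red triangles the 4 depleted mice, and black lines are group means. Dnmt1 and Uhrf1 stand lowest in HSC, Dnmt3a, Dnmt3b and Tet1 stand lowest in CFU, and Kat6a of depleted mice lies below that of control mice in MkP and CFU.

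Per kilobase of annotated exon, so that genes of different length can be compared, the maintenance genes led in every population. In HSC the mean level over 8 mice was 21.2 CPM per kb for Uhrf1 (SD 12.9), 18.3 for Dnmt1 (SD 5.33) and 11.5 for Dnmt3b (SD 2.68), and the first 3 overlapped in their ranges over mice. Dnmt3a followed at 5.03 (SD 0.909) and Asxl1 at 4.90 (SD 1.63), then Kat6a at 3.46 (SD 0.946), Tet1 at 3.05 (SD 0.955), Tet3 at 1.90 (SD 0.264) and Tet2, the lowest, at 1.21 CPM per kb (SD 0.375). In CFU the order was steeper. Uhrf1 reached 108 CPM per kb (SD 8.60) and Dnmt1 37.9 (SD 5.46), Asxl1 came next at 6.24 (SD 1.58) and then Dnmt3b at 4.96 (SD 0.952), while Tet1 was last at 0.431 (SD 0.0832), just under Tet2 at 0.558 (SD 0.207), which overlapped it. These lengths join the exons of all GENCODE M21 transcripts of a gene and so understate the level of genes with many alternative exons, among them Dnmt3a at 16.6 kb.

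The maintenance genes rose in both progenitor populations. Dnmt1 in the 8 mice ran from 75.2 CPM (median 122, highest 195) in HSC, from 215 (median 323, highest 377) in MkP and from 227 (median 282, highest 352) in CFU. Every MkP and every CFU value lay above every HSC value, and MkP and CFU overlapped. By edgeR's quasi-likelihood test Dnmt1 was 2.32-fold higher in MkP than in HSC (log2 fold change 1.21, SE 0.14, adjusted p = 7.9e-07) and 2.07-fold higher in CFU than in HSC (1.05, SE 0.14, adjusted p = 8.01e-07), while CFU and MkP were not separated (-0.16, SE 0.14, adjusted p = 0.351).

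Uhrf1, the guide of Dnmt1, was graded. It ran from 30.2 CPM (median 77.9, highest 183) in HSC, from 231 (median 276, highest 303) in MkP and from 412 (median 458, highest 512) in CFU, and no value of any population overlapped another population. The log2 fold change was 1.61 in MkP against HSC (SE 0.24, adjusted p = 1.98e-05), 2.40 in CFU against HSC (SE 0.25, adjusted p = 1.33e-08) and 0.78 in CFU against MkP (SE 0.24, adjusted p = 0.00798) by the same test. HSC varied most between mice, and its highest values came from control mice 3 and 4 at 183 and 163 CPM. Control mouse 3 also had the largest share of HSC with a Mki67 count, 25.9% against 4.55% to 10.1% in the other 7 mice.

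The de novo enzymes were lower in CFU. Dnmt3a ran from 58.3 CPM (median 86.2, highest 104) in HSC, from 66.9 (median 86.7, highest 116) in MkP and from 20.6 (median 26.6, highest 35.9) in CFU, so that each CFU value lay below each value of the other populations. CFU stood 3.08-fold below HSC (log2 fold change -1.62, SE 0.13, adjusted p = 1.69e-10, edgeR) and 3.33-fold below MkP (-1.74, SE 0.13, adjusted p = 1.13e-10). MkP and HSC were not separated (0.11, SE 0.13, adjusted p = 0.568).

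Dnmt3b was lower in CFU too, with HSC at 35.01 to 81.9 CPM (median 58.9), MkP at 52.5 to 78.8 (median 63.6) and CFU at 19.98 to 34.8 (median 24.1). CFU against HSC gave a log2 fold change of -1.21 (SE 0.14, adjusted p = 5.41e-08, edgeR), and against MkP the log2 fold change was -1.37 (SE 0.14, adjusted p = 1.37e-08). The CFU values did not overlap those of either other population, and MkP against HSC gave 0.15 (SE 0.14, adjusted p = 0.445).

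Of the oxidising enzymes Tet1 changed most. It ran from 31.6 CPM (median 46.3, highest 78.5) in HSC, from 25.97 (median 32.99, highest 51.2) in MkP and from 4.46 (median 6.44, highest 8.52) in CFU. CFU stood 7.03-fold below HSC (log2 fold change -2.81, SE 0.18, adjusted p = 3.17e-12, edgeR) and 5.14-fold below MkP (-2.36, SE 0.18, adjusted p = 9.74e-11), with no overlap. MkP against HSC gave -0.45 (SE 0.17), just past the threshold at an adjusted p of 0.0486 and with overlapping values. That call was lost in 10 of 17 alternative settings, among them without control mice 3 or 4 or without any of the 4 depleted mice, where the adjusted p ran from 0.0531 to 0.133.

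Tet2 was the least abundant family member per kilobase in HSC and MkP. It stood at 15.1 to 32.6 CPM (median 16.8) in HSC, 8.86 to 27.3 (median 20.8) in MkP and 4.94 to 16.3 (median 8.64) in CFU, and the ranges overlapped. It was lower in CFU than in HSC (-1.14, SE 0.24, adjusted p = 0.000219, edgeR) and than in MkP (-0.99, SE 0.24, adjusted p = 0.00112), and MkP against HSC gave -0.15 (SE 0.23, adjusted p = 0.695).

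Tet3 was the only one of the 3 Tet genes called higher in MkP. Its values were 25.4 to 37.1 CPM (median 31.8) in HSC, 32.96 to 54.01 (median 44.8) in MkP and 21.9 to 34.3 (median 26.5) in CFU. MkP exceeded HSC by 0.47 on the log2 scale (SE 0.11, adjusted p = 0.00214, edgeR), CFU stood below MkP (-0.67, SE 0.11, adjusted p = 1.75e-05), and CFU against HSC gave -0.20 (SE 0.11, adjusted p = 0.114). The MkP and HSC ranges overlapped at their edges.

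Asxl1, a cofactor of the histone H2A deubiquitinase Bap1, did not pass the test in any pair of populations. It ran from 21.4 CPM (median 36.3, highest 50.6) in HSC, from 28.1 (median 41.2, highest 47.3) in MkP and from 29.7 (median 45.7, highest 62.4) in CFU. CFU against HSC gave 0.37 (SE 0.18, adjusted p = 0.0818, edgeR), which became 0.38 (adjusted p = 0.00557) when the mouse was kept as a block, as the pairing of populations within mice allows. Kat6a was lower in CFU than in HSC (-0.44, SE 0.17, adjusted p = 0.0252), and this call was lost in 4 of 17 alternative settings, with adjusted p from 0.0523 to 0.1: without control mouse 2, without depleted mouse 1 or 2, and in the fit of these populations alone. Kat6a in CFU against MkP gave -0.32 (SE 0.17, adjusted p = 0.109) and, with the mouse as a block, -0.35 (adjusted p = 0.0469).

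Counted together, MkP against HSC called 4 of 9 members, 3 higher and 1 lower, where 29.9% of 20852 genes were called, 16.8% higher and 13.1% lower. CFU against HSC called 7, 2 higher and 5 lower, where 63.5% were called, 27.7% higher and 35.8% lower. CFU against MkP called 6, 1 higher and 5 lower, where 53.4% were called, 22.3% higher and 31.1% lower. Without adjustment the members past 0.05 were again 4, 7 and 6, beside 38.8%, 66.7% and 57.9% of genes. The members' shares lie near or moderately above these backgrounds. The groups did not overlap for 2, 5 and 4 members in these comparisons, where 11.4%, 33.8% and 28.4% of all genes did not overlap. The median log2 fold change of the members was 0.12, -0.45 and -0.67, beside 0.01, -0.27 and -0.25 over all genes. These comparisons share sums with each other and are not independent.

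**Figure D2:**
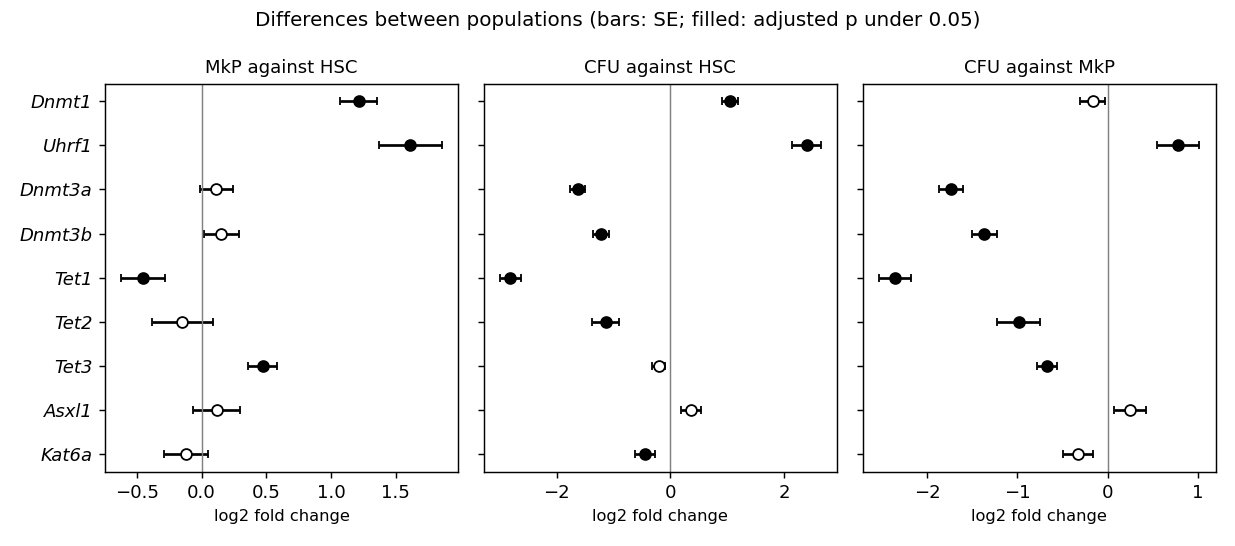
Log2 fold change (x axis) of each gene between pairs of populations, from edgeR over 24 sums. Bars are standard errors and filled points have an adjusted p under 0.05. Dnmt1 and Uhrf1 lie right of 0 against HSC, and Dnmt3a, Dnmt3b, Tet1 and Tet2 lie left of 0 in both comparisons of CFU.

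All 9 genes have a long joined exon length, from the 82.8th percentile for Uhrf1 to the 99.5th for Dnmt3a, Tet2 and Tet3. Genes with the longest transcripts stood lower in CFU as a class. The 2031 genes with the longest transcripts (from 5.9 kb) had a median log2 fold change of -0.62 in CFU against HSC and -0.43 in CFU against MkP. The longest transcripts of Uhrf1 (3586 bases), Dnmt3b (4320) and Dnmt1 (5870) are shorter than that. Over all genes the Spearman correlation of log2 fold change with exon length was only -0.064 in CFU against HSC and -0.03 in CFU against MkP. With GC content it was -0.005 and -0.003. When the trends with GC content and transcript length were removed from each sum, an alternative added after the data were seen, the median of all genes itself moved from -0.27 to 0.39 in CFU against HSC and from -0.25 to 0.41 in CFU against MkP. Relative to that median, Tet1 in CFU against HSC moved from -2.54 to -1.77 and remained called, Dnmt3a moved from -1.35 to -0.60 and Dnmt3b from -0.94 to -0.58, and neither was called. Tet2 moved from -0.86 to -0.26 and also lost its call. Against MkP, Dnmt3a (-1.49 to -1.06), Dnmt3b (-1.12 to -0.94) and Tet1 (-2.12 to -1.66) remained called, and Tet2 (-0.74 to -0.41) did not. In MkP against HSC, Dnmt3a gained a call with the trends removed (log2 fold change 0.44, adjusted p = 0.00498, edgeR), and Tet1 moved from -0.45 to -0.13 and lost its call (adjusted p = 0.481).

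Uhrf1 and Dnmt1 against HSC were called with these trends removed as well, by 2.96 and 1.92 above the median in CFU and by 1.72 and 1.46 in MkP. In that alternative Tet3 and Kat6a, at or below 0 in CFU otherwise, stood above 0 in CFU against both populations and above the median by 0.93 and 0.47 against HSC and by 0.07 and 0.28 against MkP, and Asxl1 did so by 1.23 and 0.82. The directions of Tet3 and Kat6a in CFU thus depend on whether the GC and length trends are removed, which was done for both at once. The part of each was not tested.

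Detection in single cells had the order of the mean summed levels for some members, among them Uhrf1, Dnmt3a, Dnmt3b and Tet1. At 100000 counts per cell, Dnmt1 had a count in 58.6% of HSC (SD 8.92 over 8 mice), 86.5% of MkP (SD 2.92) and 98.8% of CFU (SD 1.29). Its order thus differed between MkP and CFU, where its mean level was 314 and 280 CPM, which the test did not separate. Uhrf1 went from 28.0% of HSC (SD 11.5) to 70.2% of MkP (SD 8.10) and 98.0% of CFU (SD 1.37). Dnmt3a was found in 63.6% of HSC (SD 8.84), 67.3% of MkP (SD 7.65) and 49.6% of CFU (SD 5.91), and Tet1 in 40.9% (SD 8.20), 36.2% (SD 5.54) and 13.4% (SD 4.35). Tet1 thus had no count in most cells of every population.

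For Tet2, Tet3, Asxl1 and Kat6a the share of cells and the level did not go together. Tet3 was detected in 32.9% of HSC (SD 5.63), 50.7% of MkP (SD 7.62) and 54.4% of CFU (SD 9.25), although its CPM was lower in CFU than in MkP. Kat6a was detected in 36.9% of HSC (SD 7.05) and 51.98% of CFU (SD 12.9), and Asxl1 in 30.9% of HSC (SD 4.76) and 63.4% of CFU (SD 10.6), although Asxl1 was not called and Kat6a was lower in CFU by CPM. Tet2 was detected in 25.7%, 27.3% and 24.5% of HSC, MkP and CFU, although its CPM was lower in CFU. In HSC the counts were concentrated in fewer cells, with the top 10% of cells holding 65.4% of the summed per-cell CPM of Asxl1 and 62.9% of that of Kat6a, against 35.7% and 43.5% in CFU. CFU cells also had more genes with a count, a median of 8397.5 in control mice against 6514.5 in HSC. A cell held counts of 3.60 of the 9 members on average in HSC (SD 0.482 over 8 mice), 4.62 in MkP (SD 0.543) and 4.94 in CFU (SD 0.287).

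**Figure D3:**
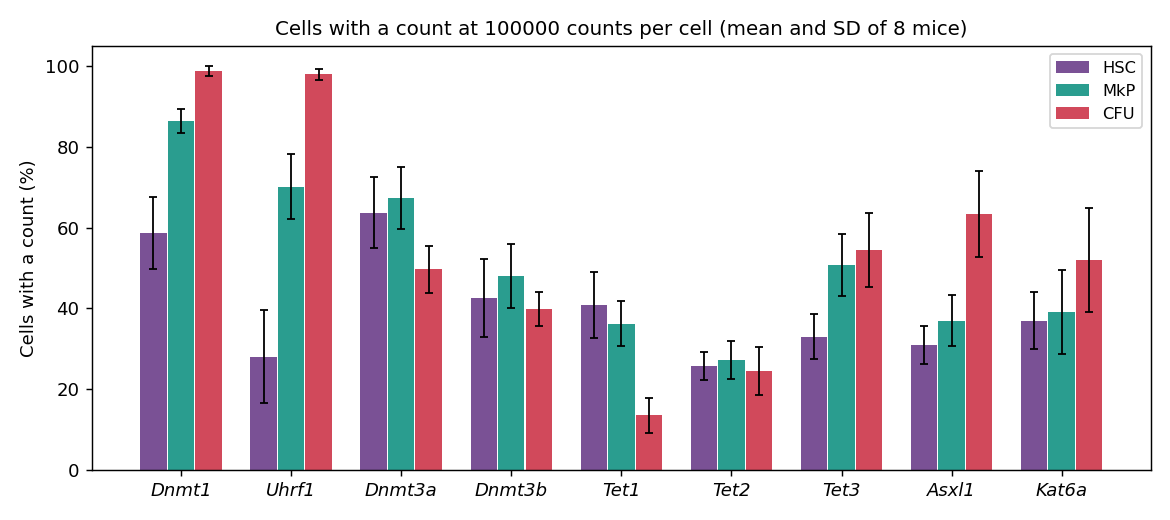
Share of cells with at least 1 count of each gene after thinning every cell to 100000 counts (y axis, percent, from 0). Bars are the mean of 8 mice and error bars the SD, for HSC (purple), MkP (green) and CFU (red). Dnmt1 and Uhrf1 rise from HSC to CFU, while Tet1 falls to 13.4% in CFU.

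The maintenance genes are known to be made most in dividing cells, so cells with a count of Mki67, a protein of cycling cells, were compared with cells without a count of it in the same mouse, with classes set at 20000 counts per cell. Such cells made up 10.5% of HSC (SD 6.50 over 8 mice), 42.03% of MkP (SD 8.37) and 91.4% of CFU (SD 5.52). In MkP, Uhrf1 was higher in the cells with Mki67 in 8 of 8 mice, at 342 against 237 CPM of the unscaled totals, a mean log2 ratio of 0.53 (SD 0.25, exact sign-flip p = 0.0078, adjusted p = 0.0844 over 27 tests). Dnmt1 was higher in 8 of 8 mice too, at 381 against 291 CPM (0.38, SD 0.12, exact p = 0.0078, adjusted p = 0.0844). The exact p of 0.0078 is the smallest that 8 mice allow, and no member passed after adjustment.

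In HSC, where 7 mice had at least 5 cells of each class, the ratios were larger. Uhrf1 stood at 277 CPM in cells with Mki67 and 73.4 in cells without it, with a log2 ratio from 0.34 to 3.94 and a mean of 1.95 (SD 1.295, exact p = 0.0156, adjusted p = 0.0844). Dnmt1 stood at 337 and 125 CPM, with a mean log2 ratio of 1.43 (SD 0.46, exact p = 0.0156, adjusted p = 0.0844), and both genes were higher in 7 of 7 mice. Tet1 went the other way in 6 of 7 mice, at 31.2 and 57.8 CPM (-1.22, SD 1.22, exact p = 0.0469, adjusted p = 0.181). The classes rest on few cells here, 6 to 21 with Mki67 per mouse used, and cells with Mki67 had the higher median total count in 5 of these 7 mice.

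With the classes set by 3 or more of 20 G2/M genes in place of Mki67, 7 members and populations passed at an adjusted exact p of 0.0352 or 0.0402 over 18 tests. These were Uhrf1 (2.95 in HSC, 1.11 in MkP) and Dnmt1 (1.64 and 0.64), higher in 8 of 8 mice each, and Tet1 in HSC (-0.57), Tet2 in HSC (-1.36) and Dnmt3a in MkP (-0.21), lower in 7 of 8 mice each. The value of Tet2 in HSC depended on the classes, at -0.77 with Mki67 at 20000 counts (lower in 5 of 7 mice) and 0.46 with Mki67 at 100000 counts (higher in 5 of 7 mice), neither of which passed. In CFU, where cells without Mki67 numbered 55 in all, no member differed at an unadjusted exact p under 0.05. Dnmt3b in MkP was lower in cells with Mki67 in 7 of 8 mice (-0.42, SD 0.33, exact p = 0.0156, adjusted p = 0.0844), and Asxl1 was higher in 7 of 8 (0.55, SD 0.52, exact p = 0.0312, adjusted p = 0.141).

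**Figure D4:**
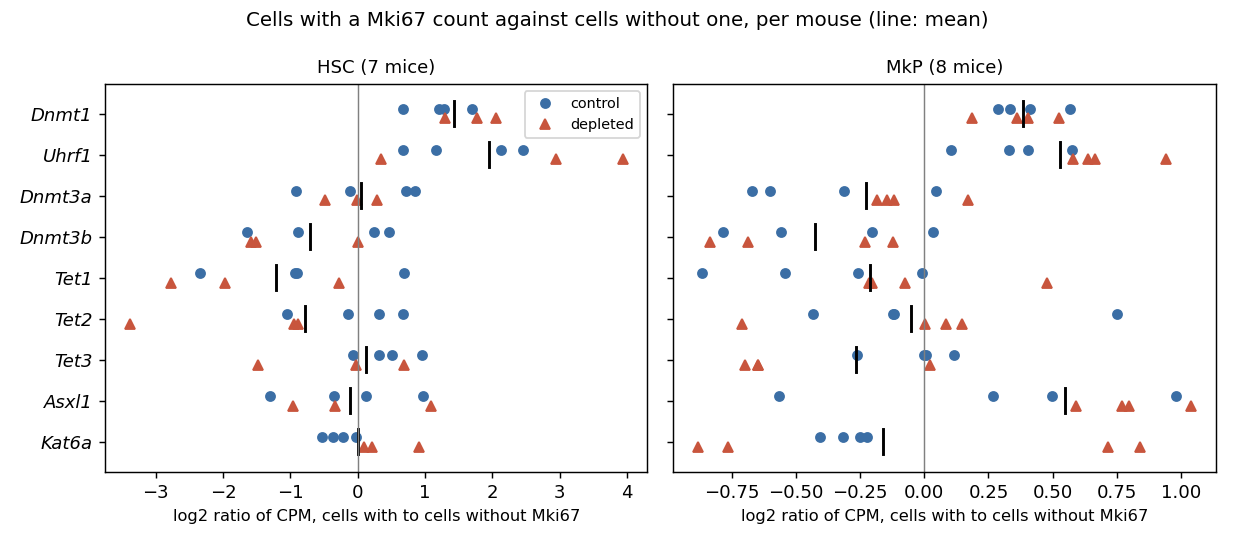
Log2 ratio of CPM in cells with a Mki67 count to cells without it (x axis, separate scale for each panel) for each gene in HSC and MkP. Each point is 1 mouse, blue circles control and red triangles depleted, and black lines are means. All points of Dnmt1 and Uhrf1 lie right of 0.

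The differences of the maintenance genes between populations were not limited to cells with Mki67. Among cells without a Mki67 count alone, 770 MkP and 625 HSC, Dnmt1 was higher in MkP by 1.25 (adjusted p = 5.75e-06, edgeR) and Uhrf1 by 1.87 (adjusted p = 4.46e-05), while Tet3 at 0.58 and Tet1 at -0.47 had folds close to those in all cells but were not called (adjusted p = 0.5 and 0.841). Cells without a Mki67 count at this depth can still be in cycle. The classes parted the 22 S phase genes less in MkP than in HSC. The median log2 ratio of cells with to cells without Mki67 was 0.25 in MkP (16 genes higher) and 1.32 in HSC (21 higher). The part of S phase in the differences between populations was not tested. An alternative added after the data were seen, the fit on cells without Mki67 leaves 1 to 12 CFU cells per mouse. In CFU against HSC it gave 2.65 for Uhrf1, 0.77 for Dnmt1, -1.93 for Dnmt3a and -4.90 for Tet1, each called.

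None of the 9 genes passed the test in depleted against control mice. Depleted against control called 0 members in HSC, CFU and MkP, where 0%, 0% and 0.0108% of 17146, 15661 and 18512 genes were called by edgeR. The genes called in MkP were 0.0054% higher and 0.0054% lower. With p under 0.05 before adjustment the count was 0, 1 and 1, against 8.56%, 11.9% and 13.7% of all genes, and the member was Kat6a each time. DESeq2 called 0, 1 and 1 members, again Kat6a. The share of all genes that DESeq2 called is not given here, so these counts have no background beside them. A difference of the depletion effect between populations was not shown for any member, with 0 called in each interaction. There 0.0144% (MkP against HSC), 0% (CFU against HSC) and 0% (CFU against MkP) of genes were called by edgeR, in the first 0.0048% higher and 0.00959% lower. With so few genes called, a lack of calls does not show that the effects were equal. DESeq2 called 0 members as well, and 0 had an unadjusted p under 0.05, against 6.05%, 9.05% and 5.89% of genes.

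Kat6a was the member that separated the treatments. In MkP the control mice 1 to 4 stood at 36.1, 44.4, 38.5 and 43.9 CPM and the depleted mice 1 to 4 at 23.1, 21.9, 16.8 and 22.3 CPM. In CFU the control mice stood at 33.6, 34.6, 34.3 and 27.8 CPM and the depleted mice at 20.2, 15.7, 9.43 and 21.7 CPM. All 4 depleted mice lay below all 4 control mice in both populations. Groups failed to overlap for 9.32% of all genes tested in MkP and 9.96% in CFU, so lack of overlap for 1 member of 9 is close to the background.

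The log2 fold change of Kat6a was -0.94 in MkP (SE 0.14, unadjusted p = 6.43e-05, adjusted p = 0.128, edgeR) and -1.02 in CFU (SE 0.24, unadjusted p = 0.00171, adjusted p = 0.249). It ranked 9th by p among the 18512 genes in MkP and 93rd among 15661 in CFU. DESeq2 called it in both (-0.95, adjusted p = 1.14e-07 in MkP, and -1.02, adjusted p = 0.00265 in CFU), and edgeR called it in MkP among genes of at least 8 CPM (-1.003, adjusted p = 0.0187). How many of all genes were called in these settings is not given here. Over all alternatives its log2 fold change ran from -1.11 to -0.84 in MkP and from -1.22 to -0.83 in CFU, with adjusted p from 1.14e-07 to 0.264 and from 0.00265 to 1.

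In HSC, Kat6a of control mice stood at 39.7, 47.9, 30.8 and 24.5 CPM and of depleted mice at 32.1, 31.5, 20.1 and 27.8 CPM. The groups overlapped for all 9 members in HSC, where 8.09% of genes did not overlap. The log2 fold change of Kat6a there was -0.38 (SE 0.25, adjusted p = 0.703, edgeR). The difference of the effect from that in HSC was -0.60 for MkP (SE 0.32, adjusted p = 0.886) and -0.60 for CFU (SE 0.32, adjusted p = 0.608), so an effect limited to the progenitors was not shown.

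Detection of Kat6a per cell gave the same split at equal depth. At 20000 counts per cell, Kat6a had a count in 35.5%, 31.6%, 32.5% and 36.2% of MkP of the control mice and in 24.1%, 13.9%, 14.5% and 18.7% of MkP of the depleted mice. In CFU the shares were 37.3%, 36.1%, 37.8% and 39.2% against 23.7%, 12.6%, 12.5% and 22.99%. At this depth every depleted mouse was below every control mouse, with differences of -16.2 and -19.7 percentage points and an exact two-sided permutation p of 0.0286 each, the smallest that 4 against 4 mice allow (adjusted p = 0.257 over 27 tests). Without thinning the groups overlapped in CFU, where 2 depleted mice reached 80.6% and 80.5% and control mice ran from 76.4% to 85.1% (-10.4 points, exact p = 0.286), and stayed apart in MkP (-20.9 points, exact p = 0.0286). Uhrf1 in MkP also had that p at 20000 counts, at 69.2% in control (SD 2.48) and 58.5% in depleted mice (SD 4.80), although its CPM was not separated (-0.09, SE 0.08, adjusted p = 0.679). At 100000 counts the groups were apart, with depleted mice lower, for Kat6a in MkP and CFU, Uhrf1 in MkP, Tet1 in HSC and MkP, Tet3 in HSC and CFU and Dnmt3b in CFU (exact p = 0.0286 each, adjusted p = 0.0964). In MkP the mean share was lower in depleted mice for all 9 members at each of these depths. The share of all genes whose detection was apart in this way was not computed at any depth. Before thinning, depleted cells had fewer genes with a count. The medians were 5915.5 against 6921.5 in MkP, 5595 against 6514.5 in HSC and 7908 against 8397.5 in CFU. Whether the lower detection of members goes beyond this was not tested. No detection difference passed after adjustment at 20000 counts, at 100000 counts or without thinning.

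**Figure D5:**
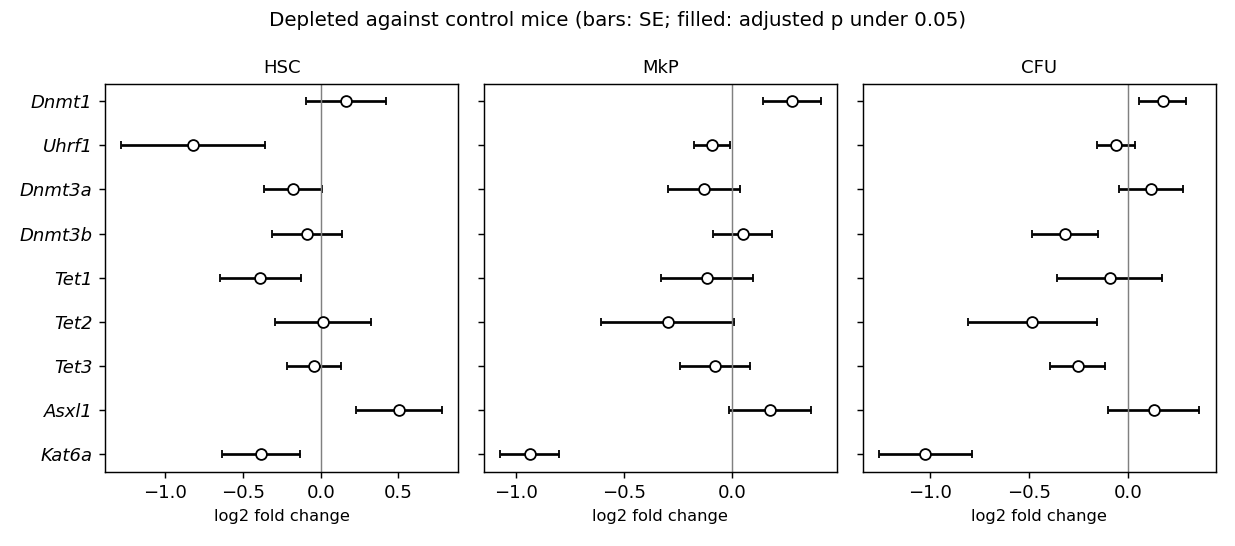
Log2 fold change (x axis) of each gene in depleted against control mice, from edgeR within HSC, MkP and CFU with 4 mice a group. Bars are standard errors, and filled points would have an adjusted p under 0.05. No point is filled, and Kat6a lies furthest left in MkP (-0.94) and CFU (-1.02).

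Other properties of the cells moved with treatment beside Kat6a. Depleted mice had fewer genes with a count per cell, a median of 5915.5 against 6921.5 in MkP and 7908 against 8397.5 in CFU, at higher median counts per cell. The median mitochondrial share of a cell was 2.58% against 3.18% in MkP and 3.15% against 3.64% in CFU. Of 13 erythroid markers, 12 had a positive log2 fold change in depleted MkP (median 0.53, 0 called), and their summed level was 1712 to 2210 CPM against 1604 to 2039 CPM in control mice. The share of MkP with a Mki67 count was 35.5% (SD 3.64) in depleted and 48.6% (SD 6.06) in control mice, without overlap, and of the 20 G2/M genes in MkP all 20 had a negative log2 fold change (median -0.42), 0 of them called. The Kat6a difference among MkP without a Mki67 count was -1.11 (adjusted p = 0.199, edgeR), and with GC and length trends removed it was -0.90 (adjusted p = 0.106). Their part in the Kat6a difference was not tested beyond these values.

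In CPM the 8 remaining members overlapped between treatments in every population. Uhrf1 in HSC had the next largest fold change, with control mice at 70.8, 43.3, 183 and 163 CPM and depleted mice at 57.6, 84.9, 30.2 and 88.4 CPM (-0.82, SE 0.46, adjusted p = 0.647, edgeR). Control mice 3 and 4 set the control mean. The 22 S phase genes in HSC had a median log2 fold change of -0.57, 21 of them below 0 and 0 called. Asxl1 in HSC stood at 21.4, 36.2, 25.5 and 36.5 CPM in control and 48.5, 49.5, 23.5 and 50.6 CPM in depleted mice (0.50, SE 0.28, adjusted p = 0.641), where depleted mouse 3 fell among the controls.

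Across the 24 sums, which share their populations, some members went together. The log2 CPM of Dnmt3a and Tet1 had a Pearson r of 0.95, Dnmt3a and Dnmt3b 0.86, and Dnmt1 and Uhrf1 0.80, whereas Uhrf1 and Tet1 had -0.71. Kat6a had no r above 0.44 and Asxl1 none above 0.49 with any other member, and Tet3 reached 0.67 with Dnmt3b and had 0.04 with Uhrf1. The genes most like Uhrf1 among 9771 compared were Lig1 (r = 0.99), the ligase of replication, Mcm5 (0.99), a subunit of the replicative helicase, and Timeless (0.98), a replication fork protein. Those most like Dnmt3a were Pla2g4a (0.97), Ehd3 (0.97) and Gatad1 (0.96), and those most like Tet1 were Fhl1, Mylk and Rhof (0.98 each). Dnmt1 was nearest to Sf3b2 (0.93), Dnmt3b to Atp13a2 (0.95), Tet2 to Ankrd11 (0.87), Tet3 to Dock8 (0.82), Asxl1 to Ankfy1 (0.81) and Kat6a to Zfp326 (0.81).

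The partners of these genes showed where the members stood in their pathways. Of 11 tested genes of the DNA methylation machinery outside the members, 6 were higher in MkP than in HSC, led by Cdca7 (1.11, adjusted p = 6.27e-07, edgeR) of the Hells remodelling complex, Lig1 (1.52) and Pcna (1.04), the replication clamp, and 0 were lower, where 16.8% of all genes were higher and 13.1% lower. In CFU against HSC 9 were higher, led by Ahcy (1.94, adjusted p = 3.14e-11), which clears the product of methyl transfer, Pcna (2.01) and Lig1 (2.16), and 0 were lower. Over all genes 27.7% were higher and 35.8% lower in CFU than in HSC, 63.5% in all, a background that holds for the next lists too. The list's medians were 0.54 and 0.91, beside 0.01 and -0.27 over all genes. Lig1 and Pcna are replication genes as well, and Pcna is also on the S phase list.

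Readers of methylated or unmethylated CpG split. Of 10, 6 were higher in CFU than in HSC, led by Mbd2 (1.90, adjusted p = 5.9e-10, edgeR), and 3 were lower, led by Zbtb4 (-3.89) and Zbtb38 (-0.996). Of 16 tested partners of demethylation, 6 were higher in CFU than in HSC, led by Tdg (1.73, adjusted p = 1.02e-11), the glycosylase that excises oxidised 5-methylcytosine, and 10 were lower, led by Ogt (-1.70), which binds Tet proteins, and with Cxxc5 (-6.47) and Idh1 (-1.14), a source of the Tet cofactor 2-oxoglutarate. In MkP against HSC 7 were higher and 4 lower.

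Around Asxl1, the Polycomb methyltransferases exchanged. Ezh2 was higher and Ezh1 lower in MkP (1.35 and -1.27, adjusted p = 5.41e-07 and 3.11e-06, edgeR) and in CFU (1.95 and -1.85) than in HSC, and Hcfc1, a partner of Bap1, was higher in both (0.49 and 1.23). Of the 16 tested genes of this list, 7 were higher and 5 lower in CFU than in HSC. In total this was close to the 63.5% of all genes called, 27.7% higher and 35.8% lower. Of 10 genes of the Kat6a complex and its relatives, 4 were higher in CFU than in HSC, led by Kat8 (1.04). The 2 lower ones were Kat6b (-2.14, adjusted p = 4.56e-10, edgeR), the closest paralog of Kat6a, and Ing4 (-1.45). In total this was again near the share called over all genes. In depleted against control mice 0 of these 10 were called in any population, with medians of -0.02, -0.01 and -0.08 in HSC, CFU and MkP.

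Of 32 other genes mutated in clonal hematopoiesis, 17 were higher and 1 lower in MkP than in HSC. There 29.9% of all genes were called, 16.8% higher and 13.1% lower. In CFU against HSC 17 were higher and 4 lower, in total near the 63.5% of all genes called. By direction they differed from all genes, of which 27.7% were higher and 35.8% lower. The list's median log2 fold change was 0.38, beside -0.27 over all genes. The splicing factor gene U2af1 (0.69 in MkP and 1.44 in CFU), the cohesin gene Smc3 (0.75 and 1.27) and Trp53 (0.42 and 0.96) were higher in both. The lower genes in CFU were led by the transcription factors Etv6 (-3.27, adjusted p = 8.22e-15, edgeR), Runx1 (-1.84) and Cux1 (-1.39). None of the 32 was called in depleted against control mice, where 4, 2 and 6 of them had an unadjusted p under 0.05 in HSC, CFU and MkP, beside 8.56%, 11.9% and 13.7% of all genes.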

How the data were processed

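Per the file headers and values, the authors' matrix gives whole-number read counts of genes in single wells, with 3069 columns that matched a sample title, and 1 column was not used. The submitters' processing notes name Trim Galore 0.5, STAR 2.6.0 and HTSeq 0.6.1 without roles. The sources used here do not name the build, annotation or strand rule, so reads on the exon bases shared with another gene (2.65% of Asxl1, 0.8% of Dnmt3a, 0.25% of Tet2) cannot be assigned. The code opening each title was taken as the mouse, the replicate throughout. Wells with at least 20000 counts, 1000 genes and at most 20% mitochondrial counts were kept (2668, with 401 removed). No doublet caller was run, cells being sorted singly per the labels. Their counts were summed per mouse and population and tested with edgeR 4.0.16 (R 4.3.3, quasi-likelihood test, TMM, edgeR's default expression filter in each fit). Population contrasts used all 24 sums with treatment as covariate, treatment contrasts 4 against 4 sums within a population, and interactions the 6 groups. DESeq2 1.42.0 and other filters, wells, depths and left-out mice were alternatives. The standard error is the log2 fold change divided by the square root of F. Shares of cells and Mki67 classes were tested per mouse with exact two-sided permutation and sign-flip tests (a pseudocount of 0.5 counts in ratios). Tests were checked on simulated data. The 3 populations of a mouse pair by origin, although their deviations from group means correlated by only 0.019 to 0.079. Lists named all members and, per list, up to 3 called genes a direction with the lowest adjusted p. The members and lists were chosen with earlier results of these data known. Smart-seq2 counts are amplified reads, so per-cell counts are not molecules. Transcript length and GC came from GENCODE M21, promoters from RefSeq GRCm38.p6, read 250 bases before each start. Coordinates refer to that build only.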

Additional observations from a re-analysis of the deposited data

Results flagged for a closer look

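Each member was examined in each group of 4 mice, 54 groups in all, for a mouse whose distance to its nearest neighbour takes up most of the group's range (Dixon's 95% critical value). Chance alone marks about 1 group in 20, and 4 of 54 were marked. Asxl1 in depleted HSC was 23.5 CPM in mouse 3, against 48.5 to 50.6 in the other 3 mice. Tet2 in control HSC was 32.6 CPM in mouse 2, against 15.1 to 16.6. Tet1 in control CFU was 8.52 CPM in mouse 2, against 6.04 to 6.39. Kat6a in control CFU was 27.8 CPM in mouse 4, against 33.6 to 34.6, and this lowest control value still lay above the highest depleted value of 21.7.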

How the results depend on the processing

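Of 1986 values of single members under an alternative, 1818 had the same direction and the same side of the threshold, 21 lost a call, 21 gained one and 6 changed sign while called in at least 1 of the settings compared. A further 120 changed sign while called in neither setting. All 6 reversals came from removing GC and length trends, added after the data were seen. In CFU against HSC that gave 0.12 for Tet2, 1.31 for Tet3 and 0.85 for Kat6a, and in CFU against MkP 0.81 for Dnmt1, 0.48 for Tet3 and 0.69 for Kat6a, beside medians over all genes of 0.39 and 0.41. GC content and length were removed together, so the part of each was not tested. Counts of members called moved by over 1.5 times in 5 cases. MkP against HSC fell from 4 to 2 with only cells without Mki67 (added later, fewer cells). Depleted against control rose from 0 to 1 by DESeq2 in CFU and in MkP and from 0 to 1 in MkP among genes of at least 8 CPM, where fewer genes are tested. The shares of all genes called in these settings are not given here. Classes by G2/M genes raised the count of members differing between classes from 0 to 7. That setting has fewer tests, as CFU had too few cells outside the G2/M class. Uhrf1 and Dnmt1 in MkP had an exact sign-flip p of 0.0078 in both settings, with adjusted p of 0.0844 and 0.0352. In HSC, 8 mice were used in place of 7, and the exact p of both genes went from 0.0156 to 0.0078. Tet1 and Tet2 in HSC and Dnmt3a in MkP also had a lower exact p. The part of each difference in the count was not tested. Without 1 mouse, members called ran from 3 to 4 in MkP against HSC, from 6 to 7 in CFU against HSC and from 6 to 6 in CFU against MkP, and were 0 elsewhere. With the replicate block (mouse) the counts were 4, 8 and 7, and 0 in the interactions, the gains being Asxl1 (0.38) and Kat6a (-0.35). Depleted and control mice share no pairing. DESeq2 moved the median of all genes in CFU against HSC from -0.27 to -0.38. With 4 mice a group, precision is limited by the number of mice, and HSC rest on the fewest counts.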
